A study of Mus musculus with 18 samples.

Results

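Matrix metalloproteinases and their inhibitors were followed in mouse embryonic fibroblasts (MEFs), stromal cells of the mouse embryo, that had been given uracil. The 10 genes were picked by name: the rows of the count table whose Ensembl identifier belongs to Mmp2, Mmp3, Mmp9, Mmp13, Mmp14, Mmp19, Timp1, Timp2, Timp3 or Reck, out of 55487 genes in the table. All 10 were found. Total RNA was sequenced after 24 h in medium with no added uracil (control), 10 µM uracil or 30 µM uracil, with 6 libraries at each dose and 18 in all. The libraries of each dose are numbered 1 to 6 in the labels, so that each number holds 1 library of each dose, and the labels do not say what a number stands for (a culture, an embryo or a day). The labels give no strain, embryonic age or genotype for the cells, and the p-values below measure the spread between these libraries. The study's methods call the replicates biological.

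Matrix metalloproteinases are zinc enzymes that cut the proteins of the extracellular matrix outside the cell. They are made as inactive precursors, and a propeptide has to be cut off or displaced before the enzyme works. Tissue inhibitors of metalloproteinases (TIMPs) are small secreted proteins that sit in the active site and block it, and Reck is an inhibitor anchored to the cell membrane. Fibroblasts are a main source of both sides of this balance, and transcript levels as measured here say nothing of how much enzyme is active.

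Between 3963932 and 20775298 read pairs were assigned to genes per library. In 15 libraries fewer than 5% of the pairs did not align, but 54.2% did not in control 1, 37.9% in 30 µM 6 and 5.24% in 10 µM 6. Results for the 10 genes are given with these 3 libraries and, where they matter, without them. For markers and other genes, calls among replicate numbers are those over all 18 libraries unless stated. The study's methods say that a control and a 30 µM sample were left out for contamination with human RNA, and the labels do not say which. All 18 libraries are in the main tests here, and the part of human RNA in the values of control 1 and 30 µM 6 was not tested. Fibroblast identity was checked with 10 markers, of which none was under 1 CPM (counts-per-million, the read pairs of a gene scaled to the library's total) in every library. Their summed level was 25310 to 57100 CPM, highest in 30 µM 6, and 25310 to 29570 CPM in the 15 libraries. Markers of macrophages and neutrophils, both known sources of Mmp9, summed to 1.39 to 5.85 CPM and to 0 to 0.540 CPM, and Elane was at 0 in every library.

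Promoters are shown for 3 members, because the text below turns on Timp3 and because Mmp3 and Mmp13 are the pair with an AP-1 motif and a TATA box. Of the 10 genes, 7 matched an entry in RefSeq's promoter table (build GRCm38.p6); Mmp2, Mmp9 and Mmp19 are not shown. Each line below gives the 100 bases just before the RefSeq start, 5′ to 3′ on the plus strand, at chr9:7445722-7445821 for Mmp3, chr9:7272414-7272513 for Mmp13 and chr10:86300312-86300411 for Timp3. Capitals mark an AP-1 motif or a TATA box in Mmp3 and Mmp13 and a GC box in Timp3.
Mmp3: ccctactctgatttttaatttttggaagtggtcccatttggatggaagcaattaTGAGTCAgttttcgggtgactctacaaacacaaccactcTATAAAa
Mmp13: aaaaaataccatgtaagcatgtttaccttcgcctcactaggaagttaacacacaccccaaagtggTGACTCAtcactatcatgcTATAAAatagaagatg
Timp3: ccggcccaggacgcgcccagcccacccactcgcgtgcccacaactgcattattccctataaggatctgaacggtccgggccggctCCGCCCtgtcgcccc
The AP-1 motif, searched as TGACTCA or TGAGTCA on both strands in the 250 bases before each start, was found in 4.46% of 32851 promoters and, among the 7 members, at −46 in Mmp3 and −35 in Mmp13. The TATA box, searched as TATAAA or TTTATA, was found in 12.4% of promoters and in the same pair of members, at −7 in Mmp3 and −16 in Mmp13. The GC box, GGGCGG or CCGCCC, was found in 32.7% of promoters and in the other 5 members, at −15 in Timp3, −8 in Timp1, −37 in Timp2, −19 and −13 in Mmp14, and −92 and −55 in Reck. The 7 promoters therefore fell into those with an AP-1 motif and a TATA box and those with a GC box, with none holding both kinds. These are matches of letters and not sites of binding.

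Levels were compared between genes per length, as RPKM, that is, CPM per kilobase of exon, with all annotated exons of a gene merged. The order of the genes rests on these lengths. In CPM, Mmp14 (432.7 ± 46.5) and Timp2 (549.8 ± 186) both stood above Timp1 (240.3 ± 29.4) in the control libraries. In RPKM the 3 TIMPs stood highest. In the 6 control libraries Timp3, a TIMP that binds the matrix, was at 198.5 ± 36.6 RPKM (mean ± SD, n = 6). Timp2, which also takes part in the activation of Mmp2, was at 123.2 ± 41.6 RPKM and Timp1 at 123 ± 15 RPKM, and over all 6 control libraries these neighbours overlapped. That overlap came from control 1, with 207.5 RPKM of Timp2 and 97.7 RPKM of Timp1. In the other 5 control libraries Timp1 lay above Timp2 without overlap, at 128 ± 9.70 against 106 ± 5.89 RPKM. Mmp14, a membrane-bound enzyme that cuts collagen and activates Mmp2, was at 70.2 ± 7.54 RPKM, followed by the gelatinase Mmp2 at 41.1 ± 5.66 RPKM. Mmp19, a secreted member of the family, was at 11.8 ± 2.14 RPKM.

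The other 4 genes were near or below 1 RPKM in control cells. Reck, at 1.26 ± 0.357 RPKM, and the stromelysin Mmp3, at 1.25 ± 0.593 RPKM, could not be ordered. Mmp9, the second gelatinase, at 0.384 ± 0.155 RPKM, and the collagenase Mmp13, at 0.292 ± 0.155 RPKM, overlapped as well. These low levels rest on few reads. A library held 3 to 16 read pairs of Mmp13, 4 to 35 of Mmp9, 7 to 61 of Mmp3 and 56 to 188 of Reck, against 5423 to 29877 of Timp3. At such depth small differences in Mmp13, Mmp9 and Mmp3 were not detectable.

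**Figure D1:**
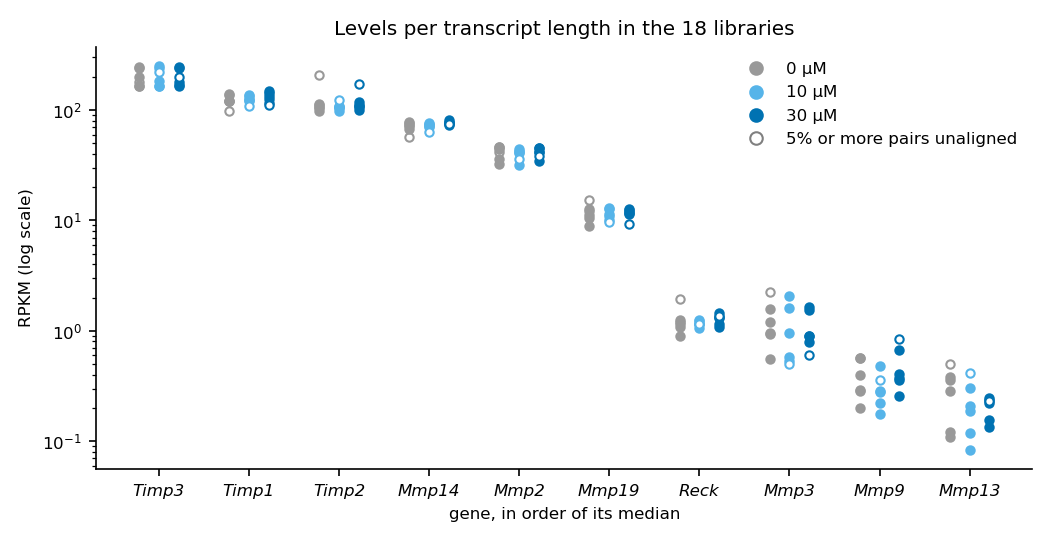
Levels of the 10 genes per kilobase of merged exons, in RPKM on a log axis, ordered by median. Each of 18 libraries is 1 point, coloured by dose, and open points are the 3 libraries with 5% or more unaligned pairs. On this scale Timp3, Timp1 and Timp2 lie above every protease, and Mmp9 and Mmp13 lie lowest.

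Some members share their place in the genome with other genes. On GRCm39, Timp2 (chr11:118191887-118246566, minus strand) overlaps exons of Cep295nl on the same strand, which had 2.28 to 9.75 CPM. Mmp19 (chr10:128626773-128636695, plus strand) overlaps exons of Tmem198b on the other strand, which had 32.1 to 45.0 CPM, close to the 31.8 to 54.1 CPM of Mmp19 itself. Timp3 (chr10:86136236-86185371, plus strand) overlaps Syn3 on the other strand, which had 0.128 to 1.08 CPM. The kit was stranded, but the strand setting of the counting is not given in the sources used here, so the level of Mmp19 is the least certain of the abundant members.

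The dose comparisons ask whether uracil added outside the cell changes these transcripts. No member passed the test at any dose. The fits held dose as the only term, so their SEs and intervals include the spread between replicate numbers. With edgeR's quasi-likelihood test and Benjamini-Hochberg adjustment, 0 of 10 members were called at 10 µM against control, at 30 µM against control or at 30 µM against 10 µM, where 0% of all 13865 genes tested were called in each comparison. At an unadjusted p under 0.05, 0 of 10 members passed in each, against 0.692% of all genes (96 genes) at 10 µM, 4.29% (595 genes) at 30 µM and 2.33% (323 genes) between the doses. DESeq2 and limma-voom also called 0 genes in each comparison. In bulk RNA, fewer cells of a type and less RNA per cell cannot be told apart.

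The ranges of the abundant proteases overlapped between doses. Mmp14 had 348.5, 444 and 476 CPM in control libraries (lowest, median and highest), 389, 449 and 473 CPM at 10 µM and 450.5, 466 and 505 CPM at 30 µM. The lowest control value was that of control 1, and without the 3 libraries the means were 449.5 ± 24.0, 455 ± 14.7 and 474 ± 20.4 CPM (n = 5 each). Its log2 fold change at 30 µM against control was 0.12 ± 0.070 (SE; 95% interval −0.025 to 0.27; adjusted p = 0.931 by edgeR's quasi-likelihood test), so that the doses overlapped.

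Mmp2 had 115.5, 152 and 163 CPM in control libraries, 112, 145 and 156 CPM at 10 µM and 122, 147 and 160.5 CPM at 30 µM. The 3 ranges overlapped almost wholly, with log2 fold changes of −0.064 ± 0.099 at 10 µM and 0.0013 ± 0.099 at 30 µM. Mmp19 likewise had 31.8, 41.5 and 54.1 CPM in control, 34.1, 39.5 and 45.6 CPM at 10 µM and 32.7, 41.6 and 44.5 CPM at 30 µM. Its log2 fold change at 30 µM against control was −0.025 ± 0.11 (95% interval −0.26 to 0.21).

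Among the scarce proteases, Mmp9 had the widest difference between doses. It had 0.733, 1.27 and 2.10 CPM in control libraries, 0.649, 1.04 and 1.78 CPM at 10 µM and 0.956, 1.44 and 3.10 CPM at 30 µM. The groups overlapped, while in each of the 6 numbers the 30 µM library stood above the 10 µM library. The log2 fold change of 30 µM against 10 µM was 0.64 ± 0.32 (95% interval −0.021 to 1.30), with an unadjusted p of 0.0570 and an adjusted p of 1 by edgeR's quasi-likelihood test. Against control, Mmp9 gave −0.39 ± 0.32 at 10 µM and 0.25 ± 0.32 at 30 µM, and these comparisons share their control libraries. The highest value, 3.10 CPM, was that of 30 µM 6. Without the 3 libraries with the most unaligned pairs, the means were 1.49 ± 0.613 CPM in control, 1.06 ± 0.434 at 10 µM and 1.52 ± 0.564 at 30 µM (n = 5 each).

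Mmp3, which cuts many matrix proteins and activates other proteases, had 1.01, 1.96 and 4.04 CPM in control libraries, 0.904, 1.38 and 3.76 CPM at 10 µM and 1.08, 1.61 and 2.99 CPM at 30 µM. Its interval at 30 µM against control, −0.89 to 0.70 on the log2 scale, left room for changes in either direction. Mmp13 had 0.290, 0.854 and 1.35 CPM in control, 0.223, 0.527 and 1.11 CPM at 10 µM and 0.361, 0.608 and 0.655 CPM at 30 µM. Its interval at 30 µM, −1.20 to 0.45, was the widest of the 10 genes in that comparison.

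Of the inhibitors, Timp3 and Timp1 gave values near 0. Timp3 had 1333, 1537 and 2011 CPM in control libraries, 1348, 1653 and 2034 CPM at 10 µM and 1356, 1536 and 1982 CPM at 30 µM. Every dose spanned nearly the same range, and the log2 fold changes were 0.043 ± 0.14 at 10 µM and 0.0047 ± 0.14 at 30 µM. Timp1 had 191, 237 and 274 CPM in control, 213, 243 and 269 CPM at 10 µM and 219, 252 and 292 CPM at 30 µM. Its log2 fold change at 30 µM against control was 0.074 ± 0.089 (95% interval −0.11 to 0.26).

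Timp2 and Reck each held libraries far from the rest of their dose. Timp2 had 435, 485 and 926 CPM in control libraries, 438, 477 and 545 CPM at 10 µM and 449, 487 and 761 CPM at 30 µM. The 3 highest values were those of control 1, 30 µM 6 and 10 µM 6, the libraries with the most unaligned pairs, and the part of unaligned pairs in these values was not tested. Without them the means were 475 ± 26.3, 470 ± 18.6 and 485 ± 26.5 CPM (n = 5 each), and the log2 fold change at 30 µM against control moved from −0.048 to 0.025. At 10 µM against control it was −0.19 ± 0.16 over 18 libraries and 0.025 without control 1 and 30 µM 6. Reck had 6.98, 9.18 and 15.1 CPM in control, 8.32, 8.94 and 9.80 CPM at 10 µM and 8.36, 10.3 and 11.3 CPM at 30 µM. The highest value was again control 1, and without the 3 libraries the control mean was 8.70 ± 1.06 CPM against 9.85 ± 1.16 CPM at 30 µM (n = 5 each).

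**Figure D2:**
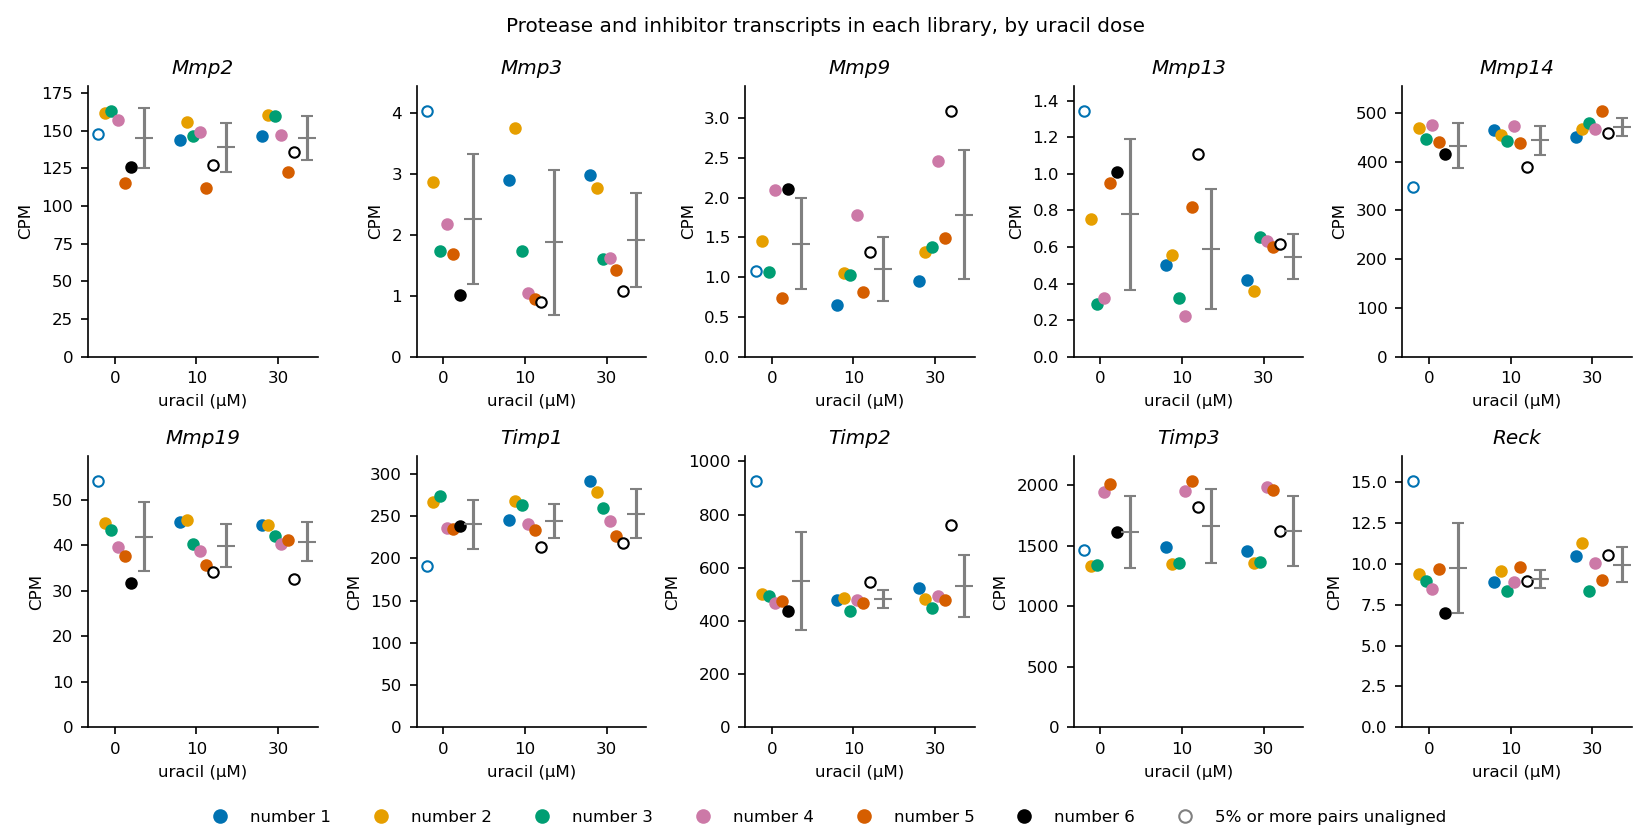
Level in CPM of the 10 genes in each library against uracil dose in µM, with 1 point per library coloured by replicate number and the mean ± SD (n = 6) beside each dose; open points are the 3 libraries with 5% or more unaligned pairs. The 3 doses overlap for every gene, and the open points carry the highest Timp2 values (926 and 761 CPM).

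Taking the 10 genes as a list, 3 values were positive and 7 negative at 10 µM, with a median log2 fold change of −0.065 beside 0.0059 over all genes. At 30 µM against control 6 were positive and 4 negative, with a median of 0.0030 beside 0.012. Between 30 µM and 10 µM 8 were positive and 2 negative, with a median of 0.058 beside 0.0057. None of these values passed the test, and each pair of comparisons shares the libraries of a dose.

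**Figure D3:**
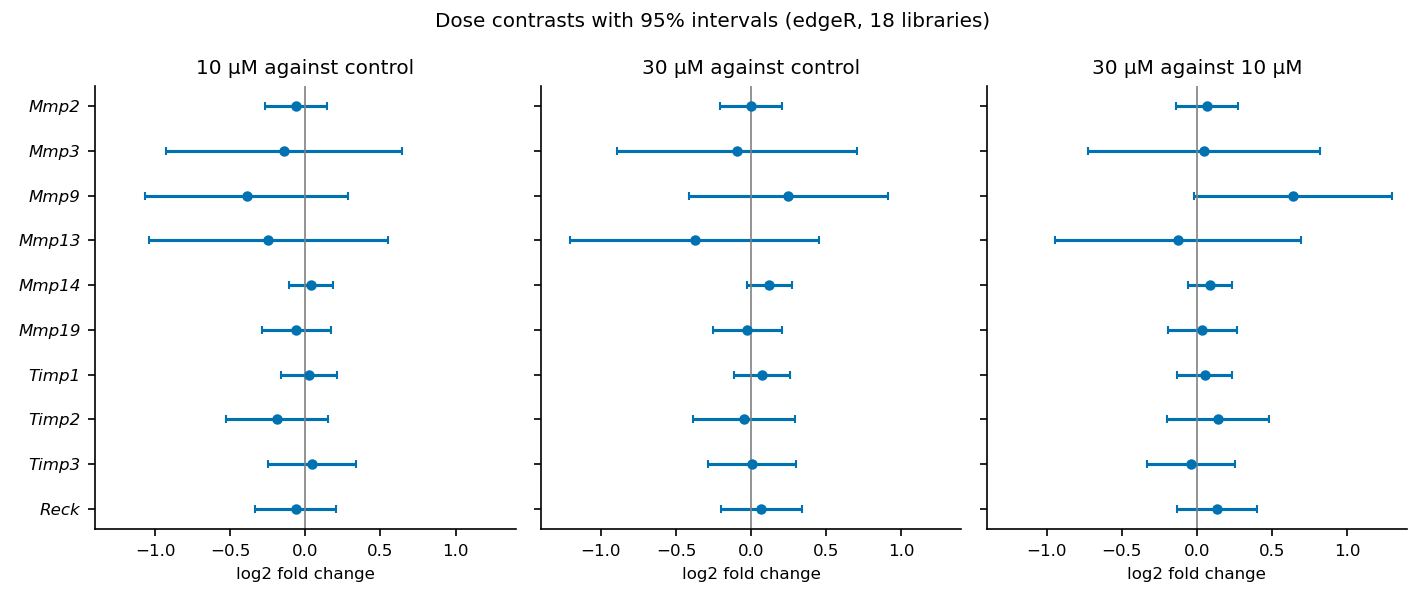
Log2 fold change of each gene in the 3 dose comparisons, with points for the edgeR estimate over 18 libraries and bars for its 95% interval. Every interval includes 0, and those of Mmp3, Mmp9 and Mmp13 are the widest.

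Across the replicate numbers the picture was different. With number and dose as terms over all 18 libraries, edgeR's F test called 5 of 10 members, namely Timp3, Mmp2, Mmp3, Mmp9 and Mmp19, where 12.6% of all genes tested were called. In the 12 libraries of numbers 2 to 5, the numbers whose libraries all had fewer than 5% unaligned pairs, it called 6 of the 9 members that passed the low-count filter, where 19.9% of all genes were called. Timp1 joined the other 5 there, and Mmp13 fell under the filter. The test compares the numbers as labelled and all at once, so its p is not that of any pair of numbers set side by side below.

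Timp3 had the smallest p of the 10. Number 2 had 1333, 1348 and 1356 CPM (control, 10 µM and 30 µM), next to 1338, 1355 and 1361 CPM for number 3. In number 4 it was 1943, 1950 and 1982 CPM, next to 2011, 2034 and 1961 CPM for number 5. The libraries of a number lay close together at every dose, and numbers 4 and 5 lay above numbers 2 and 3 without overlap. Number 1, with 1461, 1488 and 1454 CPM, and number 6, with 1614, 1819 and 1619 CPM, lay between them.

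In the 12 libraries the Timp3 mean of number 5 was 1.49 times that of number 2, with an SD of 0.018 on the log2 scale within a number. The number accounted for 99.7% of its variance in log2 CPM and the dose for 0.044%, where the median gene had 41.6% and 10.5%. The adjusted p among numbers was 2.88e-05 over 18 libraries and 3.25e-10 over 12 by edgeR's quasi-likelihood test.

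Markers of other cell types moved with the numbers as well. The 5 mesothelial markers, which mark the lining of body cavities, were all called among numbers (5 of 5), where 12.6% of all genes were called. Their summed mean level was 98.9, 98.9, 107, 186, 240 and 191 CPM in numbers 1 to 6. Msln, a surface protein of mesothelial cells, went from 29.8 ± 1.28 CPM in number 2 to 104.5 ± 7.64 CPM in number 5 (n = 3 each). The 6 epithelial markers summed to 10.3, 12.4, 9.34, 29.8, 39.4 and 25.2 CPM, and 1 of the 3 that could be tested was called, the keratin Krt14. The sum was mostly Krt14, with 4.17 ± 0.812 CPM in number 2 against 27.3 ± 4.76 CPM in number 5, and Krt8, with 4.30 ± 2.26 and 9.32 ± 0.808 CPM. Krt18 and Epcam were too scarce to test and had lower means in number 5, at 1.73 ± 1.44 against 0.169 ± 0.116 CPM and 0.700 ± 0.531 against 0.0725 ± 0.0748 CPM (number 2 against number 5). The cartilage and bone markers summed to 73.5, 57.9, 57.9, 44, 34 and 36 CPM, with Bglap and Ibsp under 1 CPM in every library. Of these, 3 of the 4 that could be tested were called. Of the endothelial markers 0 of 2 tested were called, and of the macrophage markers 0 of 2. Of the 10 fibroblast markers, 5 were called among numbers, and they did not share a direction. Dcn, like Timp3, was higher in numbers 4 and 5, with 89.9, 65.5, 174 and 209 CPM in numbers 2 to 5. The others called had lower means in number 5 than in number 2. These were Col3a1 (4516 ± 51.2 and 3987 ± 512 CPM), Pdgfrb (238 and 147 CPM), Pdgfra (41.3 and 31.2 CPM) and Lum (7.84 and 2.12 CPM, number 2 and number 5). Over the 12 libraries of numbers 2 to 5, Col3a1 did not pass (adjusted p = 0.0653, edgeR's quasi-likelihood test). There Vim (5771 and 5052 CPM) and Thy1 (43.8 and 39.9 CPM, number 2 and number 5) passed (adjusted p = 0.00420 and 0.0203, same test). Numbers 4, 5 and 6 lay above numbers 1, 2 and 3 without overlap in Timp3 and in the mesothelial and epithelial sums, and the part of other cells in the Timp3 level was not tested.

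**Figure D4:**
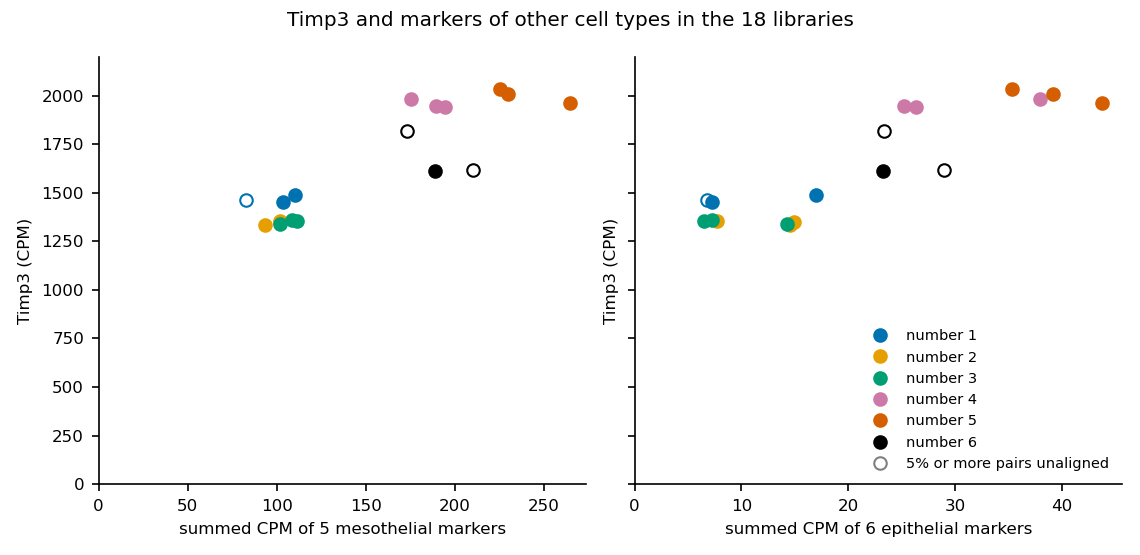
Timp3 in CPM against the summed CPM of 5 mesothelial markers (left) and of 6 epithelial markers (right), with 1 point for each of 18 libraries coloured by replicate number; open points are the 3 libraries with 5% or more unaligned pairs. Libraries of numbers 1 to 3 lie low on both axes and those of numbers 4 to 6 high, and the epithelial sum is mostly Krt14 and Krt8.

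The proteases that differed among numbers did so in other orders. Mmp2 had 162, 156 and 160.5 CPM in number 2, 163, 146 and 160 in number 3, 157, 149 and 147 in number 4 and 115.5, 112 and 122 in number 5. Number 5 stood below the other 3 without overlap, and number 6, with 126, 127 and 136 CPM, was next lowest. The mean of number 2 was 1.37 times that of number 5 (adjusted p = 0.000687 over 18 libraries and 3.30e-06 over 12, edgeR's quasi-likelihood test).

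Mmp3 was highest in numbers 1 and 2. It had 4.04, 2.89 and 2.99 CPM in number 1 and 2.86, 3.76 and 2.76 CPM in number 2, against 1.69, 0.953 and 1.42 CPM in number 5 and 1.01, 0.904 and 1.08 CPM in number 6. Numbers 1 and 2 did not overlap any of the other numbers. The mean of number 2 was 2.31 times that of number 5 (adjusted p = 0.000946 and 0.00425, edgeR's quasi-likelihood test).

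Mmp19 was highest in number 1, with 54.1, 45.1 and 44.5 CPM, and lowest in number 6, with 31.8, 34.1 and 32.7 CPM. Without control 1, numbers 1 and 2 had like means of 44.8 and 44.9 CPM. Number 6 stood below every other number without overlap, and it also had the lowest mean of Mmp3. Within the 12 libraries the means differed 1.18-fold at most, between numbers 2 and 5 (adjusted p = 0.00517 and 0.0370, edgeR's quasi-likelihood test).

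Mmp9 was highest in numbers 4 and 6. It had 2.10, 1.78 and 2.47 CPM in number 4 and 2.10, 1.32 and 3.10 CPM in number 6, while number 5 had 0.733, 0.817 and 1.49 CPM. Number 4 stood above number 5 without overlap, by 2.13-fold in the means (adjusted p = 0.00461 and 0.0164, edgeR's quasi-likelihood test). Mmp9 and Timp3 were thus alike in number 4 and unlike in number 5.

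Timp1 depended on which libraries were used. It had 267, 269 and 278 CPM in number 2, 274, 264 and 260 in number 3, 236, 241 and 244 in number 4 and 235, 234 and 226 in number 5. Numbers 2 and 3 stood above numbers 4 and 5 without overlap, the reverse of Timp3. The means differed 1.17-fold, with an adjusted p of 0.00212 over the 12 libraries and of 0.300 over all 18 by edgeR's quasi-likelihood test. Number 1 was spread widest, with 191 CPM in control 1 and 292 CPM at 30 µM, and without control 1 the adjusted p was 0.0128.

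Mmp14, Timp2, Reck and Mmp13 did not pass the test among numbers. For Mmp14 the number accounted for 9.14% of the variance in the 12 libraries, and the number means differed 1.03-fold at most. The dose accounted for 39.2%, the largest share of the 10 members, beside 10.5% for the median gene, though no dose comparison passed. Timp2 means differed 1.07-fold and Reck means 1.17-fold, where the median gene had 1.16-fold. Their adjusted p over 18 libraries was 0.537 for Mmp14, 0.418 for Timp2, 0.569 for Reck and 0.279 for Mmp13 by edgeR's quasi-likelihood test.

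**Figure D5:**
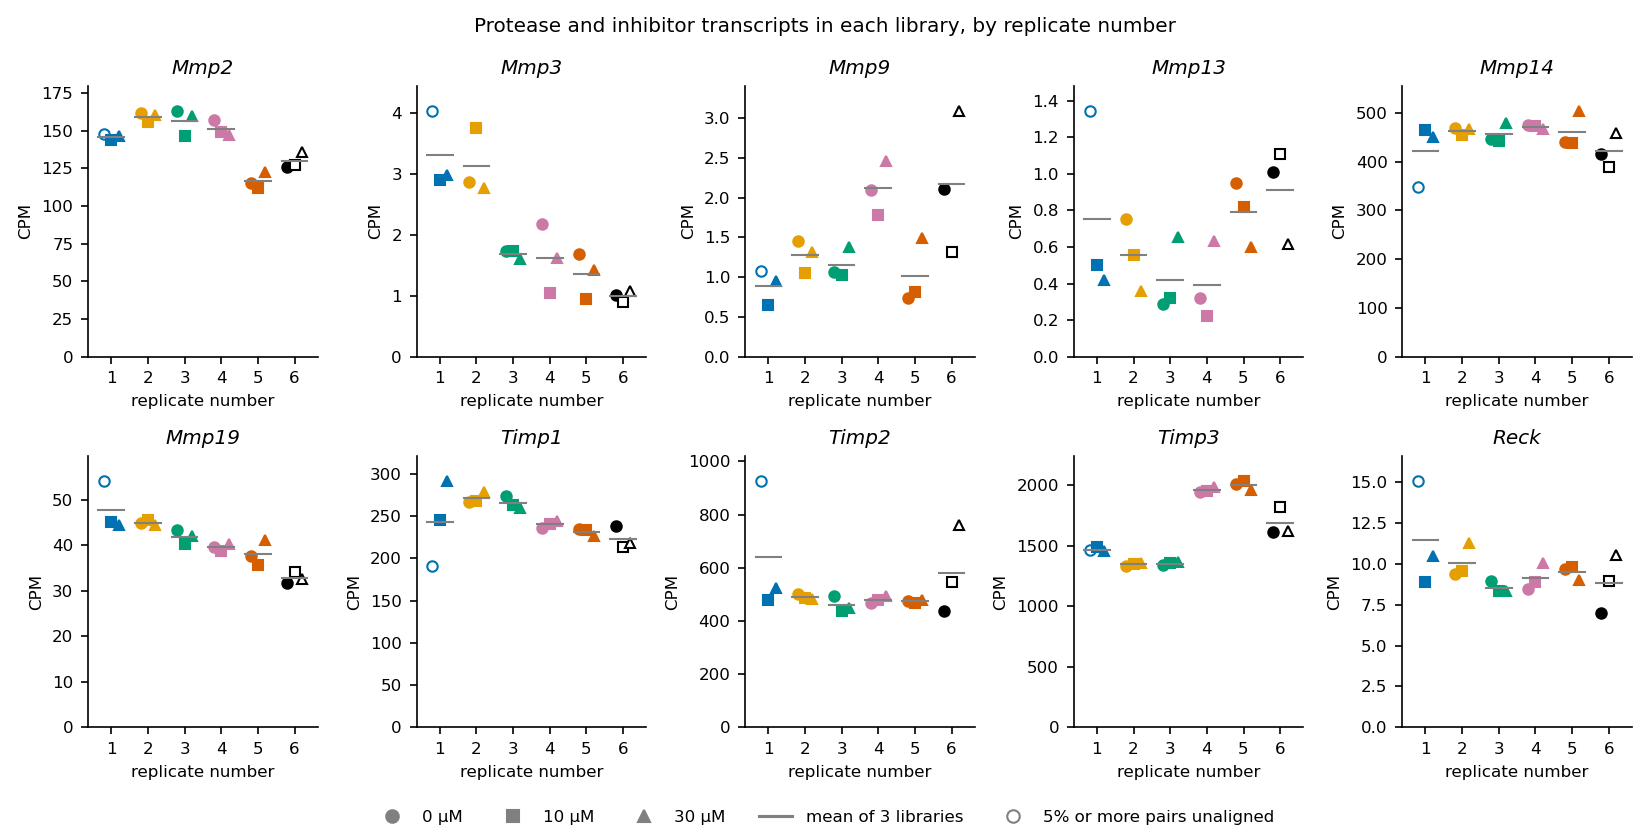
Level in CPM of the 10 genes in each library against replicate number, with symbols for the dose, grey bars for the mean of the 3 libraries of a number and open symbols for the 3 libraries with 5% or more unaligned pairs. Timp3 is highest in numbers 4 and 5 at every dose, Mmp2 is lowest in number 5, and Mmp14 has means between 421 and 472 CPM.

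The genes whose pattern was most like each member were found by Pearson's r of log2 CPM over the 15 libraries with fewer than 5% unaligned pairs, among 13864 genes. The points share replicate numbers, so r describes these libraries only. The nearest gene to Timp3 was Bnc1, a transcription factor known from keratinocytes and mesothelium, at r = 0.987. Mmp19 was nearest to Cpxm1 (r = 0.968), Mmp2 to Pear1 (r = 0.957), Mmp14 to Sardh (r = 0.930) and Timp1 to Stmn2 (r = 0.929). Mmp3 was nearest to Atp12a (r = 0.923), Timp2 to Slc35f5 (r = 0.901), Mmp13 to Dtna (r = 0.872), Mmp9 to Gm12418 (r = 0.846) and Reck to Slc7a2 (r = 0.841).

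Among the members themselves, Mmp3 and Mmp19 were nearest to each other (r = 0.831), as were Timp2 and Reck (r = 0.734) and Mmp2 and Timp1 (r = 0.678). The nearest member to Mmp14 was Mmp19 (r = 0.527), to Mmp9 it was Mmp2 (r = 0.263), to Timp3 it was Mmp9 (r = 0.248) and to Mmp13 it was Timp3 (r = 0.209). The most opposite pair was Timp1 and Timp3 (r = −0.835), as their number means show.

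Genes around these proteases were examined in 5 lists. The calls among numbers given below are over 18 libraries. Over the 12 libraries of numbers 2 to 5, where 19.9% of all genes were called, the MMP and TIMP list held 2 of 6. The plasminogen list held 5 of 7, the ADAM and ADAMTS list 11 of 19, the activators and receptors 8 of 12 and the AP-1 and ETS list 11 of 13. In none of the lists was a gene called in a dose comparison by edgeR's quasi-likelihood test. At an unadjusted p under 0.05, the lists held 1 gene, the AP-1 member Jund at 30 µM against 10 µM (log2 fold change 0.31 ± 0.14, adjusted p = 1), named here after its value was seen. DESeq2 and limma-voom called no gene of the whole table.

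Of 18 further genes of the MMP and TIMP families, 6 passed the low-count filter and 2 were called among numbers (12.6% of all genes). The membrane-linked Mmp23 had 33.1 ± 1.72 CPM in number 2 against 24.1 ± 2.23 CPM in number 5 (n = 3 each; adjusted p = 0.00296, edgeR's quasi-likelihood test). Mmp28 had 7.05 ± 0.745 and 5.10 ± 0.752 CPM (adjusted p = 0.0326). The member of the list with the most counts, the membrane-bound Mmp16, had 64.4 ± 3.15 and 55.6 ± 6.00 CPM and did not pass (adjusted p = 0.220).

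In the plasminogen system, whose protease plasmin can activate metalloproteinases, 5 of 7 tested genes were called among numbers (12.6% of all genes). The protease inhibitor Serpine2 had 153 ± 1.56 CPM in number 2 against 92.3 ± 2.78 CPM in number 5, and Plau, the urokinase-type activator, had 78.9 ± 1.19 and 56.4 ± 2.64 CPM (adjusted p = 2.97e-07 and 0.00397, edgeR's quasi-likelihood test).

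Of 26 ADAM and ADAMTS proteases, 19 were tested and 6 were called among numbers (12.6% of all genes). Adamts1, which cuts proteoglycans, had 264 ± 10.2 CPM in number 2 against 170 ± 5.05 CPM in number 5. Adamts2, which trims procollagen, had 78.8 ± 3.96 and 49.8 ± 2.53 CPM, and Adamts12 had 119.8 ± 2.37 and 78.9 ± 4.14 CPM (adjusted p = 0.000131, 6.70e-05 and 0.00248, edgeR's quasi-likelihood test). Adam9, the most counted of the list, had 267 ± 2.30 and 269 ± 12.1 CPM and did not pass over 18 libraries (adjusted p = 0.293). The called genes did not share a direction: Adamts14, with 29.2 ± 1.47 and 36 ± 3.48 CPM, and Adamts20, with 4.13 ± 0.551 and 6.21 ± 0.854 CPM, were higher in number 5 (adjusted p = 0.0155 and 0.0205; named after their values were seen).

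Of 14 activators and receptors of metalloproteinases, 12 were tested and 5 were called among numbers (12.6% of all genes). Among them were 2 proprotein convertases, enzymes that cut propeptides. Pcsk5 had 7.47 ± 0.727 CPM in number 2 against 14.1 ± 2.51 CPM in number 5, and Pcsk6 had 50.6 ± 0.944 and 78.3 ± 4.66 CPM (adjusted p = 0.000358 and 0.000199, edgeR's quasi-likelihood test). The integrin chain Itgb3 had 40.8 ± 2.29 and 29.4 ± 0.293 CPM, and Lrp1, an endocytic receptor that clears proteases and the most counted of the list, had 1238 ± 66.3 and 1451 ± 70.1 CPM (adjusted p = 0.000330 and 0.0317).

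Of 14 transcription factors of the AP-1 and ETS families and their partners, known regulators of metalloproteinase genes, 13 were tested and 8 were called among numbers (12.6% of all genes). Fos had 27.4 ± 1.05 CPM in number 2, 18.6 ± 1.64 in number 3, 12.5 ± 1.06 in number 4 and 15.5 ± 1.75 in number 5. Junb, its partner in AP-1, had 201.5 ± 3.61 CPM in number 2 against 133 ± 14 CPM in number 5 (adjusted p = 4.18e-06 and 0.00141, edgeR's quasi-likelihood test). Ets1 had 66.7 ± 0.811 and 54.1 ± 1.75 CPM, and Fosl2, the most counted of the list, had 193 ± 14.6 and 151 ± 6.40 CPM (adjusted p = 0.000494 and 0.0432). The called genes did not share a direction here either: Ets2, with 55.1 ± 1.08 and 68.9 ± 0.648 CPM, and Etv4, with 34.3 ± 1.44 and 44.7 ± 2.67 CPM, were higher in number 5 (adjusted p = 0.00766 and 0.00923; named after their values were seen). Mmp3, which has an AP-1 motif in the promoter shown above, was also higher in number 2 than in number 5. Mmp13, which has one too, had 0.557 ± 0.198 and 0.789 ± 0.179 CPM. It rested on 3 to 16 read pairs per library and was not called (adjusted p = 0.279, edgeR's quasi-likelihood test). The part of AP-1 in either level was not tested.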

How the data were processed

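The authors deposited raw counts of read pairs, not normalised, by Ensembl gene, from stranded, ribosome-depleted total RNA (TruSeq) of MEFs. The submitters' processing notes name FastQC, HISAT2, SAMtools 1.2, HTSeq and the build GRCh38, a human assembly, although the gene identifiers are mouse. The annotation and whether counting used strand are not given in the sources used here. All 18 columns matched a sample by title and 0 matched none; the 5 closing entries for uncounted pairs (unaligned: 1.72% to 54.2% of pairs) were left out of library sizes and tests. Names and positions came from GENCODE M39 (GRCm39), which named 51731 of 55487 genes.

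Counts were scaled by TMM, filtered by filterByExpr on dose (minimum 10, total 15; 13865 genes kept) and tested with edgeR 4.0.16 (R 4.3.3) by quasi-likelihood, two-sided, at an adjusted p under 0.05 over all genes. Dose was the only term; replicate numbers were tested with dose in the model. CPM and RPKM use the TMM library sizes and GENCODE exon lengths; shares of variance and similar genes use log2 CPM with a prior count of 0.5. Alternatives were DESeq2 1.42.0, limma 3.58.1 (voom with quality weights), RLE scaling, no filter, fewer libraries, each library left out, and a replicate block. The code was tested on simulated data. Intervals are at 95%. All 10 members are named; from each list, the genes called with the 3 smallest p and the most counted gene are named. A gene that this rule names is not reported here. The members and lists were chosen with earlier results of these data known.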

Additional observations from a re-analysis of the deposited data

Results flagged for a closer look

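Within each dose, the highest and lowest library of every member was compared with the rest by Dixon's test. Of 30 groups of 6 libraries, 4 held a library past the 95% limit, where chance flags about 1 in 20 groups. Timp2 stood apart in control 1, with 926 CPM against 435 to 502 CPM in the other control libraries, and in 30 µM 6, with 761 CPM against 449 to 523 CPM. Reck stood apart in control 1, with 15.1 CPM against 6.98 to 9.68 CPM, and Mmp19 in 30 µM 6, with 32.7 CPM against 40.4 to 44.5 CPM. These are the libraries in which 54.2% and 37.9% of pairs did not align, and the part of the unaligned pairs was not tested. For Mmp19, control 6 (31.8 CPM) and 10 µM 6 (34.1 CPM) were as low.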

How the results depend on the processing

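In all dose comparisons the count of genes called stayed at 0 under every alternative run, and no member passed. The genes at an unadjusted p under 0.05 ranged from 67 to 656 at 10 µM, from 256 to 1005 at 30 µM and from 170 to 744 between the doses. The members' log2 fold changes turned sign in 83 of 828 recomputed values, all of them uncalled and at most 0.18 in size; the cause was not tested.

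At 10 µM against control, the values of the other sign were 0.0015 for Mmp3, 0.024 for Mmp19, −0.010 for Timp3 and 0.016 for Reck with limma-voom. They were 0.13 for Mmp3, 0.052 for Mmp19, −0.0015 for Timp1, −0.015 for Timp3 and 0.054 for Reck in the 15 libraries with fewer than 5% unaligned pairs. Without control 1 and 30 µM 6 they were −0.017 for Mmp14, 0.017 for Mmp19, −0.032 for Timp1, 0.025 for Timp2 and 0.057 for Reck. In the 12 libraries of numbers 2 to 5 they were −0.022 for Mmp14 and −0.010 for Timp1. Leaving out 1 library at a time gave −0.45 to 0.0056 for Mmp3, −0.022 to 0.074 for Mmp14, −0.13 to 0.012 for Mmp19, −0.037 to 0.064 for Timp1, −0.25 to 0.020 for Timp2, −0.020 to 0.12 for Timp3 and −0.14 to 0.053 for Reck.

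At 30 µM against control they were 0.18 for Mmp3, 0.084 for Mmp19 and −0.080 for Timp3 with limma-voom. Without control 1 and 30 µM 6 they were 0.13 for Mmp3, 0.10 for Mmp19, 0.029 for Timp2 and −0.026 for Timp3. In the 15 libraries they were 0.12 for Mmp3, 0.095 for Mmp19, 0.025 for Timp2 and −0.030 for Timp3, and in the 12 libraries −0.025 for Mmp2, 0.013 for Mmp19 and −0.011 for Timp1. Leaving out 1 library at a time gave −0.049 to 0.045 for Mmp2, −0.27 to 0.041 for Mmp3, −0.093 to 0.048 for Mmp19, −0.18 to 0.16 for Timp2 (the highest without control 1), −0.059 to 0.084 for Timp3 and −0.0086 to 0.19 for Reck.

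At 30 µM against 10 µM they were 0.18 for Mmp13 with limma-voom, −0.010 for Mmp3 in the 15 libraries, and −0.022 for Mmp3 and −0.0014 for Timp1 in the 12. Leaving out 1 library at a time gave −0.13 to 0.35 for Mmp3, −0.28 to 0.13 for Mmp13, −0.0064 to 0.087 for Mmp19 and −0.10 to 0.029 for Timp3.

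The replicate numbers were not used as pairs in the main tests, since the labels do not say what they mark. Of 18 same-number correlations of deviations, 15 were over 0.1 (−0.082 to 0.69, median 0.39). Of 90 correlations between different numbers, 27 were over 0.1 (−0.57 to 0.49, median −0.053). In the 15 libraries 11 of 13 same-number correlations were over 0.1, and 8 of 14 libraries correlated best with their own number. With the replicate block 0 genes were called in any dose comparison, and 161, 937 and 588 had an unadjusted p under 0.05 (10 µM, 30 µM and between the doses). With the replicate block over 15 libraries the sign turned for Mmp14 (−0.0078) and Timp1 (−0.034) at 10 µM and for Mmp2 (−0.025) and Mmp19 (0.0054) at 30 µM. With the block over 12 libraries it turned for Mmp14 (−0.022) and Timp1 (−0.0090) at 10 µM, for Mmp2 (−0.020), Mmp19 (0.015) and Timp1 (−0.012) at 30 µM, and for Timp1 (−0.0028) between the doses. Mmp9 at 30 µM against 10 µM was 0.64 with the block over 18 libraries (unadjusted p = 0.00187, adjusted p = 0.820, edgeR's quasi-likelihood test). With the block over 12 libraries it was 0.51 ± 0.22 (SE; unadjusted p = 0.0342, adjusted p = 0.946, same test).

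The genes called among numbers were 1745, and 2932 with DESeq2, 5959 with limma-voom, 3287 without control 1 and 30 µM 6, 2890 in the 15 libraries and 2755 in the 12. Leaving out 1 library at a time gave 1272 to 3498, the highest without control 1, and 3271 without control 6. Timp3, Mmp2, Mmp3, Mmp9 and Mmp19 were called under all 26 alternatives, Timp1 under 5, Mmp13 and Mmp14 only with limma-voom (adjusted p = 0.0169 and 0.0316), and Timp2 and Reck under none. Depth limits Mmp13, Mmp9 and Mmp3, with as few as 3, 4 and 7 read pairs in a library.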
